A study of Mus musculus with 12 samples.

Results

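The genes described here are a small set that handles zinc in mouse cells: the metallothioneins Mt1 and Mt2, the zinc importers Slc39a14, Slc39a8 and Slc39a10, the zinc exporter Slc30a1, and Mtf1, which encodes the zinc-sensing transcription factor of the system. They were chosen by gene symbol, and all 7 were found among the 18609 genes listed for each library. The data are 12 RNA-seq libraries, in 4 groups of 3, made from tumours of the C57BL/6 colon cancer line MC38. The groups were TLR4 knockout C57BL/6 hosts given Salmonella intravenously, TLR4 knockout hosts given PBS, wild-type (WT) C57BL/6 hosts given Salmonella, and WT hosts given PBS, all sampled 1 day later. TLR4 is the receptor for the lipopolysaccharide of Gram-negative bacteria, so the design asks how a tumour's RNA changes after the bacteria and how much of that differs when the host lacks the receptor. The deletion is labelled for the host; the labels name no deletion in the MC38 cells, and the labels give no bacterial strain, dose or age.

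Metallothioneins are very small, cysteine-rich proteins that bind zinc and copper ions, and their genes are among the most strongly metal-inducible genes known. When free zinc in the cytosol increases, the zinc-finger protein MTF1 binds metal response elements in their promoters and raises their transcription; glucocorticoids and the IL-6 to STAT3 pathway also induce them, which is why metallothioneins belong to the acute-phase response of liver. ZIP proteins (Slc39a genes) carry zinc into the cytosol from outside or from organelles, and ZnT proteins (Slc30a genes) carry it out. During infection hosts are known to move zinc and manganese away from microbes, and neutrophils release calgranulins that bind both metals.

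The Mt1 and Mt2 promoters are shown because these 2 genes moved together in the tumours and are the textbook targets of MTF1, and the Slc30a1 promoter because that exporter is also a known MTF1 target and its RNA was not higher in any comparison. Each line gives the 250 bases before the transcription start from RefSeq (GRCm38.p6, 5′ to 3′ on the plus strand, on which all 3 genes lie). Capitals mark the core of the metal response element, searched as TGCACNC and TGCGCNC on both strands.

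Mt1 (chr8:94178839-94179088): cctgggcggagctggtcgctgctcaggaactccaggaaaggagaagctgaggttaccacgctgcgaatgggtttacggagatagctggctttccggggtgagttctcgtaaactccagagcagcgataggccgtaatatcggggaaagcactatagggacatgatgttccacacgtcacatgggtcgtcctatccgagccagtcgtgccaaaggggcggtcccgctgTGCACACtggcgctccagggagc
Mt2 (chr8:94172368-94172617): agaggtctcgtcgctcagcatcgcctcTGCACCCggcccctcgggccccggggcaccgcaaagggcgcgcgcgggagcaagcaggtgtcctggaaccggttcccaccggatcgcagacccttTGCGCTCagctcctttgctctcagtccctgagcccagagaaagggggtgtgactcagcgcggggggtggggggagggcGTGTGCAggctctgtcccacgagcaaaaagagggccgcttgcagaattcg
Slc30a1 (chr1:191906531-191906780): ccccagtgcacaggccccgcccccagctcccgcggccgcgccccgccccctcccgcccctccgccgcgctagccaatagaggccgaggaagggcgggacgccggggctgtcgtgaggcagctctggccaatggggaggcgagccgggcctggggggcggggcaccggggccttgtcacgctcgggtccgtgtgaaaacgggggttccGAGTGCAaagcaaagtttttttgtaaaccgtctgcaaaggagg

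In these stretches Mt1 held 1 copy of the core, Mt2 held 3 and Slc30a1 held 1. Counting also the first 50 bases after the start, the windows of 300 bases held 3 copies at Mt1, 4 at Mt2 and 2 at Slc30a1. Among 32544 RefSeq mouse windows of the same length, 25.9% held at least 1 copy, 7.17% at least 2, 1.99% at least 3 and 0.522% at least 4, so 1 copy is common and the Mt2 count is rare. Slc39a8 has 2 RefSeq starts, with 0 and 1 copies, and the windows of Slc39a10 and Mtf1 held 0. RefSeq promoters were matched for 6 of the 7 genes, Slc39a14 being the other. The counts hold for the RefSeq starts only. At Mt1 the 2 further copies lie just after that start, at bases 3 to 9 and 21 to 27. The GENCODE gene of Mt2 begins at 94172664, downstream of the stretch shown. GENCODE lists 3 transcripts of Mt1 and 2 of Mt2, and copies near any other start or farther away were not counted. A match is a description of letters, not a measured binding site.

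Libraries held 30512077 to 38764511 fragments on listed genes, so that 1 fragment in a gene of 1 kb was worth 0.0258 to 0.0328 FPKM (fragment counts divided by gene length and by sequencing depth). The members were well covered: the lowest count for any member in any library was 222 fragments, for Slc30a1. The libraries of each group are titled F-1, M-1 and M-2. That M-1 and M-2 come from different animals is not stated, and p-values then reflect only how far these libraries spread, which may be technical in part. No library pair within a group held identical values. The WT Salmonella library M-2 stood apart from its group, with a chi-square per gene of 145 and 175 against F-1 and M-1, where those differed from each other by 56.7 and pairs in the other groups by 17.6 to 67.8. Tests used FPKM divided by a scaling factor for each library. It was 0.844 for F-1 and 0.845 for M-1 in WT Salmonella tumours, and 1.001 to 1.049 for all others. Fold changes that involve WT Salmonella tumours therefore differ from the ratios of the deposited values. Whether groups of a named gene overlap was read from the deposited values. The shares of all genes with separated groups, given beside them, were counted on the scaled values. Tlr4 itself stood at 1.72, 1.96 and 1.82 FPKM in knockout Salmonella tumours, 2.14, 3.15 and 1.59 in knockout PBS tumours, 2.62, 3.78 and 2.58 in WT Salmonella tumours and 2.58, 2.48 and 2.53 in WT PBS tumours. Its difference between knockout and WT was −0.72 on the log2 scale under Salmonella (adjusted p = 0.0502) and −0.15 under PBS (adjusted p = 1), and the libraries do not resolve Tlr4 RNA of host cells from that of MC38 cells. In bulk tumour RNA, fewer cells of a type and less RNA per cell cannot be told apart.

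In WT hosts the tumours given Salmonella had more Mt1 and Slc39a14 RNA than those given PBS, about 1.90 and 1.99 times as much. Those were 2 of the 7 members past an adjusted p of 0.05, with 0 lower, where 35.4% of all 12164 tested genes passed (19.2% higher and 16.2% lower), so the share of members is close to that of all genes. An unadjusted limma p under 0.05 was found there for 5 members and for 5782 of the 12164 genes. In knockout hosts 0 of the 7 passed, where 0.756% of all genes did (0.427% higher and 0.329% lower). There 3 members had an unadjusted p under 0.05, among 2330 of the 12164 genes. Between the hosts under Salmonella, Mt1 and Mt2 were lower in knockout tumours, at 0.395 and 0.410 times the WT level, 2 of 7 members where 8.74% of all genes passed with 2.92% higher and 5.82% lower. In that comparison 3 members and 3687 of the 12164 genes had an unadjusted p under 0.05. Under PBS 0 of 7 members passed between the hosts, as did 0% of all genes, with 0 members and 176 of all genes at an unadjusted p under 0.05. The difference between both Salmonella effects passed for 0 of 7 members, where 0.0247% of all genes passed; 0 members and 1746 of all genes had an unadjusted p under 0.05. The comparisons share groups, so their values are set side by side and not taken as separate evidence. The median log2 change over the members was 0.22 in knockout hosts and 0.43 in WT hosts, and −0.22 for knockout against WT under Salmonella, beside medians within 0.01 of 0 over all tested genes.

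**Figure D1:**
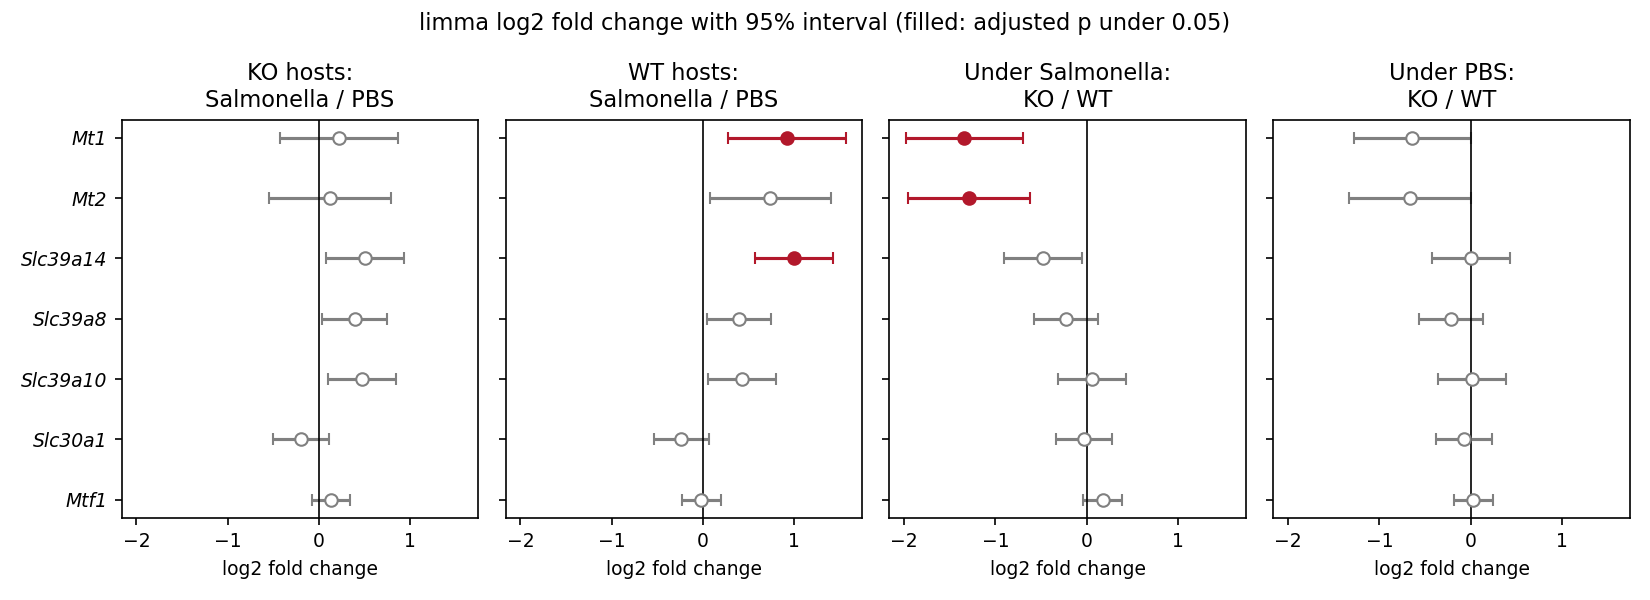
Log2 fold change of the 7 members in 4 comparisons (columns), with the 95% interval of the limma fit; filled points have an adjusted p under 0.05. Mt1 and Slc39a14 pass in WT hosts, and Mt1 and Mt2 lie below 0 between the hosts under Salmonella, while no member passes in knockout hosts or between the hosts under PBS.

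Mt1 was the second most abundant of the 7 genes, and its RNA was highest in WT tumours given Salmonella. It lies on chromosome 8 from 94179082 to 94180327 on the plus strand (GRCm38, GENCODE M21). In F-1, M-1 and M-2 it measured 551, 432 and 460 FPKM in knockout Salmonella tumours and 330, 485 and 455 FPKM in knockout PBS tumours. In the same order it measured 1283, 1316 and 725 FPKM in WT Salmonella tumours and 574, 859 and 559 FPKM in WT PBS tumours. The WT Salmonella libraries F-1 and M-1 were far above every other library, while M-2 lay within the WT PBS range. All 3 knockout Salmonella libraries were below all 3 WT Salmonella libraries, and the knockout PBS libraries were also all below the WT PBS ones. Under Salmonella the hosts were separated, in either direction, for 25.7% of all genes. In WT hosts Mt1 rose by 0.92 on the log2 scale (SE 0.29, limma adjusted p = 0.0312). That call was lost without WT Salmonella F-1 (0.74, adjusted p = 0.128) or M-1 (0.73, adjusted p = 0.117), and without WT PBS F-1 (0.84, adjusted p = 0.0910) or M-2 (0.81, adjusted p = 0.104). In knockout hosts the change was 0.22 (95% interval −0.42 to 0.86, adjusted p = 0.711). Under Salmonella Mt1 was lower in knockout tumours by −1.34 (SE 0.29, adjusted p = 0.0240). Under PBS the difference was −0.64 (unadjusted p = 0.0523, adjusted p = 1), and groups that do not overlap were found there for 7.89% of all genes.

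Mt2, the neighbouring metallothionein gene, had the highest level per length of the 7 and followed Mt1 closely. It lies 5513 bases upstream of Mt1, from 94172664 to 94173568 on the same strand of chromosome 8, where the annotation also places a predicted gene, Gm45774, and fragments of the 2 cannot be told apart since no strand setting is given. Its levels in F-1, M-1 and M-2 were 868, 702 and 845 FPKM in knockout Salmonella tumours and 579, 1076 and 676 FPKM in knockout PBS tumours. They were 2186, 1942 and 1215 FPKM in WT Salmonella tumours and 1041, 1546 and 1052 FPKM in WT PBS tumours. As for Mt1, WT Salmonella F-1 and M-1 stood above every other library and M-2 did not. In WT hosts the change was 0.74 (SE 0.31, adjusted p = 0.0761), which did not pass. With 1 library left out it ran from 0.52, without WT Salmonella F-1 (adjusted p = 0.268), to 1.09, without M-2, where it passed (adjusted p = 0.00645). In knockout hosts it was 0.12 (95% interval −0.55 to 0.79, adjusted p = 0.858), and the 2 treatments overlapped. Under Salmonella Mt2 was lower in knockout tumours by −1.29 (SE 0.31, adjusted p = 0.0304), with no overlap between hosts, as for 25.7% of all genes. Under PBS the difference was −0.67 (unadjusted p = 0.0503, adjusted p = 1), with 1 knockout library, M-1, inside the WT range.

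The calls between hosts under Salmonella depended on single libraries. For Mt1 the adjusted p was 0.120 without WT Salmonella F-1, 0.108 without M-1, 0.0989 without knockout Salmonella M-1 and 0.0819 without M-2. For Mt2 it was 0.133 without WT Salmonella F-1, 0.124 without M-1, and 0.0557 without knockout Salmonella F-1, 0.113 without its M-1 and 0.0849 without its M-2. The log2 difference stayed between −1.72 and −1.14 for Mt1 and between −1.64 and −1.07 for Mt2 in every fit that left out 1 library. The difference between both Salmonella effects was −0.70 for Mt1 (adjusted p = 0.423) and −0.62 for Mt2 (adjusted p = 0.477), so a larger rise in WT hosts was not shown for either. With 1 library left out it ran for Mt1 from −1.08 to −0.51. It passed in the fit without WT Salmonella M-2 (−1.08, adjusted p = 0.0293), in which 2219 genes passed that test, against 3 with all libraries, and was −0.51 without M-1 (adjusted p = 0.669).

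**Figure D2:**
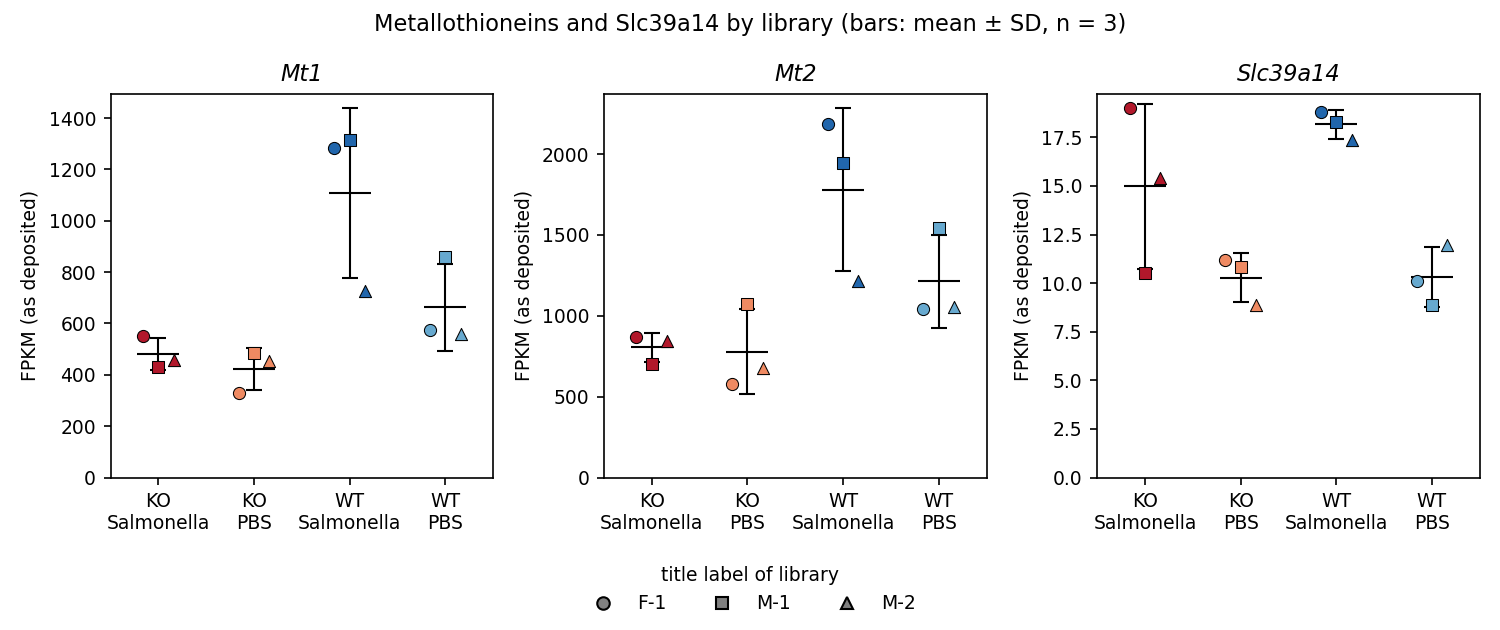
FPKM as deposited of Mt1, Mt2 and Slc39a14 in each of the 12 libraries (symbols: title label), with the mean and SD of each group of 3. For both metallothioneins, WT Salmonella F-1 and M-1 lie above all other libraries and M-2 among the WT PBS libraries; for Slc39a14 the 3 WT Salmonella libraries lie together at 17.4 to 18.8 FPKM and the knockout Salmonella libraries spread from 10.5 to 19.0 FPKM.

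Markers of several cell types moved with treatment in WT hosts, and their part in the changes of the members was not tested. Of all tested genes 19.2% were higher and 16.2% lower in WT hosts, and 0.756% passed in knockout hosts. Under Salmonella 2.92% of all genes were higher and 5.82% lower in knockout tumours. The difference between both Salmonella effects passed for 0 of 10 neutrophil, 0 of 10 endothelial and 1 of 7 tested erythroid and platelet markers. The summed FPKM of 10 neutrophil markers was 540 to 960 in knockout Salmonella tumours and 15.7 to 18.1 in knockout PBS tumours, and 2750 to 18539 in WT Salmonella tumours and 17.1 to 27.4 in WT PBS tumours (per library 2996 in F-1, 18539 in M-1 and 2750 in M-2 of WT Salmonella). Of the 10, 6 were higher in knockout hosts and 10 in WT hosts, 1 of which, Ltf, passed the low-value filter only through the WT Salmonella libraries and so had to differ; of the other 9, 6 were higher in knockout hosts and 9 in WT hosts. The filter let in the endothelial marker Tek and the muscle marker Myh1 in the same way. Among the other neutrophil markers, Ly6g, Cxcr2 and Camp passed it only through Salmonella libraries of both hosts. A rise of these genes over PBS was therefore favoured by the filter as well. Of the 9 other endothelial markers, 0 rose in knockout hosts and 7 in WT hosts, and the 10 together had a summed FPKM of 62.5 to 82.9 in knockout Salmonella tumours and 50.7 to 64.1 in knockout PBS tumours, and 99.6 to 121 in WT Salmonella tumours and 45.0 to 63.5 in WT PBS tumours. Erythroid and platelet genes summed to 50.4 to 86.4 FPKM in knockout Salmonella tumours and 17.5 to 43.7 in knockout PBS tumours, and 286 to 484 in WT Salmonella tumours and 37.0 to 71.1 in WT PBS tumours, with M-2 the lowest of the WT Salmonella libraries. Fibroblast and pericyte markers rose for 5 of 10 and fell for 1 of 10 in WT hosts, skeletal muscle markers other than Myh1 rose for 5 of 7 tested and adipocyte markers for 1 of 2 tested. Muscle markers summed to 124, 6.14 and 15.9 FPKM in knockout Salmonella F-1, M-1 and M-2, and 4.30 to 14.9 in knockout PBS tumours. In WT tumours they summed to 48.7 to 101 under Salmonella and 4.90 to 10.1 under PBS. Adipocyte markers, in the same order, summed to 66.4, 11.1 and 19.4, and to 4.47 to 13.1, 64.4 to 147 and 9.78 to 15.2 FPKM. Macrophage and monocyte markers were 2 higher and 2 lower of 10 in WT hosts; T and NK cell markers were 0 higher and 2 lower of 8 tested, and of 3 tested B cell and 2 tested keratinocyte markers 0 passed. Under Salmonella, leaving out Ltf, Tek and Myh1, the markers lower in knockout than in WT tumours were 8 of 9 neutrophil, 5 of 9 endothelial, 3 of 10 fibroblast and pericyte, 6 of 7 tested erythroid and platelet, 1 of 7 tested skeletal muscle (Mb) and 1 of 10 macrophage and monocyte markers (Itgam, which neutrophils also express). Of 3 tested B cell markers 1, Pax5, was higher in knockout tumours, and of the tested T and NK cell, adipocyte and keratinocyte markers 0 passed there. Mb and the erythroid gene Alas2, both in these counts, passed the filter mainly through the WT Salmonella libraries. The filter therefore favoured a lower level of these 2 genes in knockout tumours. It equally favoured their rise over PBS in WT hosts, where both passed as higher. The hepatocyte genes Alb, Ttr and Fga were at 0 in all 12 libraries. Epithelial markers of colon were low: Epcam reached at most 0.420 FPKM, Krt20 1.82 and Krt19 2.13 FPKM, and Krt18 was at 0 in 7 of 12 libraries, so the labelled colon cancer cells were not marked by these genes.

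Together the 2 metallothioneins made up 0.275% ± 0.029 of the summed FPKM of knockout Salmonella tumours and 0.271% ± 0.072 of knockout PBS tumours, and 0.541% ± 0.113 of WT Salmonella tumours and 0.421% ± 0.093 of WT PBS tumours (SD, n = 3 each). Among all listed genes of a library, Mt2 ranked 35th to 106th and Mt1 78th to 183rd by FPKM, so both were abundant in every group, PBS included. The sum of both, divided by the scaling factor, averaged 1259 ± 156 in knockout Salmonella tumours and 3282 ± 1222 in WT Salmonella tumours (SD, n = 3 each). That is a log2 difference of −1.38, and the exact two-sided permutation test gave p = 0.1, the smallest that 3 against 3 libraries allow (0.267 adjusted over 8 comparisons). For Salmonella against PBS the log2 difference of the sum was 0.12 in knockout hosts (exact permutation p = 0.7) and 0.87 in WT hosts (exact permutation p = 0.2). Between the hosts under PBS it was −0.64 (1155 ± 320 in knockout and 1802 ± 442 in WT tumours, SD, n = 3 each; exact permutation p = 0.1).

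The ratio of the pair varied less than their level, whose sum ranged from 909 to 3469 FPKM. Mt2 had 1.48 to 2.22 times the FPKM of Mt1 in the 12 libraries, and because the Mt2 transcript is shorter (recovered lengths of 556 bp for Mt2 and 1045 bp for Mt1) both gave similar numbers of fragments, 0.847 to 1.27 Mt1 fragments for each of Mt2. The log2 difference of Mt1 minus Mt2 was −0.69 ± 0.11 in WT Salmonella tumours and −0.87 ± 0.03 in WT PBS tumours (SD, n = 3 each). The 2 groups did not overlap, with an exact permutation p = 0.1 (0.267 adjusted over 8 comparisons), and 3 against 3 libraries cannot reach a lower one. The other 3 comparisons of this ratio gave log2 differences of −0.05 to 0.10 and exact permutation p-values of 0.6 to 0.8. The transcripts of Mt1 and Mt2 share no stretch longer than 20 bases, and none of the pairs among Mt1, Mt2, Mt3 and Mt4 shared a window of 50 bases.

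The other genes of the cluster, Mt3 and Mt4, were nearly silent except in WT tumours given Salmonella. Mt3 encodes a metallothionein best known from brain and Mt4 one best known from stratified epithelium, and the 4 genes lie in a row within 43131 bases of chromosome 8. Mt3 had 0, 0 and 5 fragments in knockout Salmonella tumours and 0, 7 and 0 in knockout PBS tumours, against 29, 29 and 27 in WT Salmonella tumours and 5, 0 and 0 in WT PBS tumours. All 3 WT Salmonella libraries stood above every other library, M-2 included. Mt3 passed the low-value filter only through those 3 libraries, so it had to differ: its log2 change of 1.97 in WT hosts (adjusted p = 0.000938) and its difference of −1.97 between knockout and WT under Salmonella (adjusted p = 0.00810) are given as a description. Their size depends on the pseudocount and model, from 1.35 to 5.01 in WT hosts over the alternatives run. Mt4 had 2, 1 and 2 fragments in knockout Salmonella tumours and 0, 4 and 0 in knockout PBS tumours, against 36, 48 and 2 in WT Salmonella tumours and 0 in all 3 WT PBS tumours. Its fragments came almost wholly from WT Salmonella F-1 and M-1, the same libraries in which Mt1 and Mt2 were highest, and it was not tested. Summed FPKM of 5 keratinocyte markers was 1.22 to 2.76 in knockout Salmonella tumours and 0.768 to 1.32 in knockout PBS tumours, and 0.971 to 4.82 in WT Salmonella tumours and 0.555 to 1.05 in WT PBS tumours, and its part in the Mt4 counts was not tested. Counts of up to 7 fragments are close to the limit of 3 that a count of 0 allows. The 27 to 29 fragments of Mt3 and the 36 and 48 of Mt4 lie above that limit but are low counts.

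**Figure D3:**
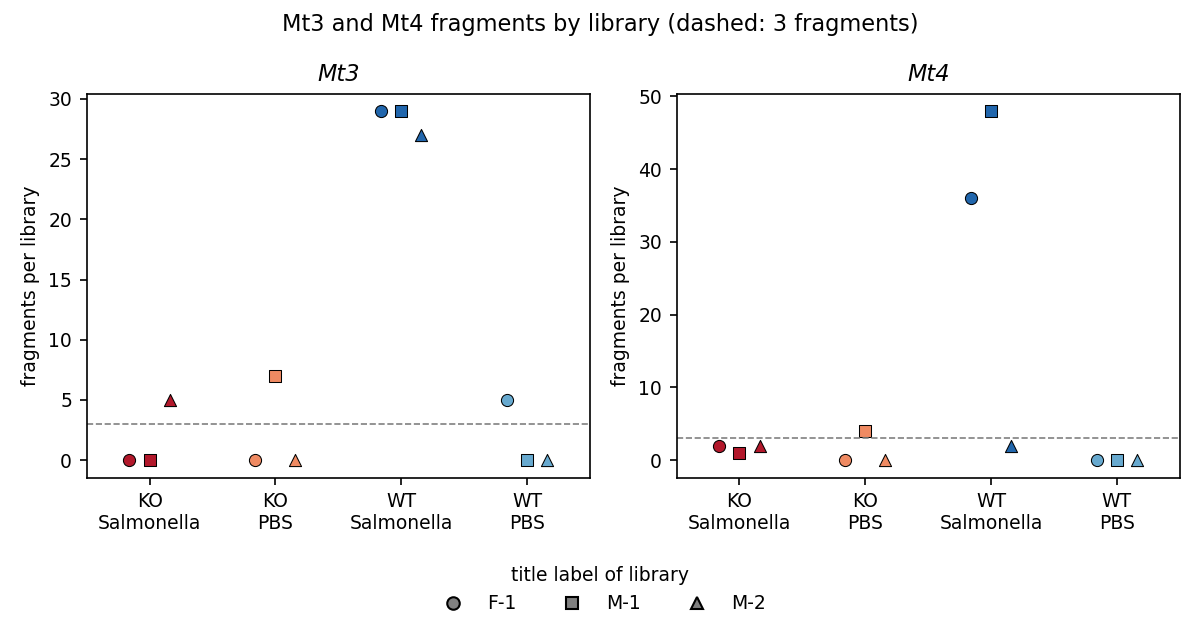
Fragments of Mt3 and Mt4 in each of the 12 libraries, recovered from the deposited FPKM, with the limit of 3 fragments dashed. Mt3 reaches 27 to 29 fragments in all 3 WT Salmonella libraries, and Mt4 36 and 48 in 2 of them; no other library exceeds 7.

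Slc39a14 encodes ZIP14, a plasma membrane importer of zinc, manganese and non-transferrin-bound iron that IL-6 induces in liver during inflammation. Its RNA rose in WT hosts with the smallest adjusted p of the 7 genes, and all 3 libraries took part. It lies on chromosome 14 from 70303469 to 70351425 on the minus strand. In F-1, M-1 and M-2 it measured 19.0, 10.5 and 15.4 FPKM in knockout Salmonella tumours and 11.2, 10.8 and 8.85 FPKM in knockout PBS tumours. Its levels were 18.8, 18.3 and 17.4 FPKM in WT Salmonella tumours and 10.1, 8.90 and 11.9 FPKM in WT PBS tumours. The 3 WT Salmonella libraries were all above the 3 WT PBS ones, whereas the knockout Salmonella libraries spread over both ranges, F-1 at the WT Salmonella level and M-1 at the PBS level. The WT groups were separated, in either direction, for 45.4% of all genes. In WT hosts the log2 change was 1.00 (SE 0.20, adjusted p = 0.00438), and it passed in all 20 alternatives run, with values of 0.80 to 1.12. In knockout hosts it was 0.51 (95% interval 0.08 to 0.94, adjusted p = 0.193). Knockout tumours differed from WT tumours by −0.48 under Salmonella (adjusted p = 0.125) and by 0.0016 under PBS (adjusted p = 1). With 1 library left out the difference under Salmonella ran from −0.68, without knockout Salmonella F-1 (adjusted p = 0.0569), to −0.26, without knockout Salmonella M-1 (adjusted p = 0.373). It passed in 1 of those fits, without WT Salmonella M-2 (−0.61, adjusted p = 0.0440), in which 37.7% of all genes passed. The difference between both Salmonella effects was −0.48 (95% interval −1.09 to 0.12, adjusted p = 0.409).

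Slc39a8 encodes ZIP8, the closest relative of ZIP14 and an importer of zinc and manganese that NF-κB induces in human macrophages, and its level in the tumours was low. It lies on chromosome 3 from 135825279 to 135888572; like Slc39a10, Slc30a1 and Mtf1 it overlaps other annotated genes, whose fragments cannot be separated from its own here. It averaged 1.62 ± 0.17 FPKM in knockout Salmonella tumours and 1.13 ± 0.09 in knockout PBS tumours, and 1.76 ± 0.42 in WT Salmonella tumours and 1.40 ± 0.08 in WT PBS tumours (SD, n = 3 each). All knockout Salmonella libraries (1.44 to 1.77 FPKM) were above all knockout PBS libraries (1.05 to 1.22 FPKM), a separation found for 29.4% of all genes. The log2 change was 0.39 in knockout hosts (95% interval 0.04 to 0.74, adjusted p = 0.213) and 0.40 in WT hosts (95% interval 0.05 to 0.75, adjusted p = 0.0713), and neither passed. The difference of these 2 effects was −0.01 (95% interval −0.50 to 0.49). Under PBS all knockout libraries were below all WT libraries (1.32 to 1.48 FPKM), with a log2 difference of −0.22 (adjusted p = 1). Hosts were separated there for 7.89% of all genes. With 1 library left out the WT change ran from 0.21, without WT Salmonella F-1 (adjusted p = 0.286), to 0.52, without M-2, where it passed (adjusted p = 0.0191).

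Slc39a10 encodes ZIP10, a plasma membrane zinc importer that supports B cell survival in mice, and it is reported to be repressed by MTF1 in mouse cells with ample zinc. It lies on chromosome 1 from 46807544 to 46892852 on the minus strand. It averaged 7.63 ± 0.59 FPKM in knockout Salmonella tumours and 5.50 ± 1.03 in knockout PBS tumours, and 6.56 ± 1.48 in WT Salmonella tumours and 5.49 ± 1.38 in WT PBS tumours (SD, n = 3 each). The knockout treatments did not overlap, at 7.02 to 8.20 FPKM under Salmonella and 4.48 to 6.53 FPKM under PBS, while the WT treatments did. Such a separation in knockout hosts was found for 29.4% of all genes. The log2 change was 0.47 in knockout hosts (95% interval 0.10 to 0.85, adjusted p = 0.176) and 0.43 in WT hosts (95% interval 0.06 to 0.81, adjusted p = 0.0669). Neither passed. With 1 library left out the WT change ran from 0.27, without WT PBS M-1 (adjusted p = 0.243), to 0.61, without WT PBS F-1, where it passed (adjusted p = 0.0249). Under Salmonella the hosts differed by 0.06 (95% interval −0.32 to 0.43).

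Slc30a1 encodes ZnT1, the zinc exporter of the plasma membrane and, with the metallothioneins, the best-known target of MTF1. Its RNA did not follow Mt1 and Mt2: it was lower in every WT Salmonella library than in every WT PBS library. It lies on chromosome 1 from 191906767 to 191913247. In F-1, M-1 and M-2 it measured 1.76, 1.53 and 1.55 FPKM in knockout Salmonella tumours and 2.02, 2.35 and 1.54 FPKM in knockout PBS tumours. It measured 1.37, 1.36 and 1.67 FPKM in WT Salmonella tumours and 1.78, 2.19 and 2.27 FPKM in WT PBS tumours. On scaled values the WT groups were separated, in either direction, for 45.4% of all genes. For Slc30a1 the scaled values gave a log2 change of −0.23 (95% interval −0.54 to 0.07, adjusted p = 0.207), which did not pass. In knockout hosts the change was −0.19 (95% interval −0.50 to 0.11, adjusted p = 0.476). Between the hosts the log2 difference was −0.03 under Salmonella, where it turned to 0.11 on FPKM as deposited, and −0.07 under PBS.

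Mtf1, the gene of the zinc sensor itself, passed in no comparison. It lies on chromosome 4 from 124802104 to 124849800, and its protein is controlled in the cell mainly by zinc binding. Mtf1 averaged 3.27 ± 0.12 FPKM in knockout Salmonella tumours and 2.997 ± 0.221 in knockout PBS tumours, and 2.53 ± 0.40 in WT Salmonella tumours and 2.93 ± 0.09 in WT PBS tumours (SD, n = 3 each). On the deposited scale all knockout Salmonella libraries (3.15 to 3.38 FPKM) were above all WT Salmonella libraries (2.20 to 2.98 FPKM). On scaled values the hosts were separated, in either direction, for 25.7% of all genes. Scaled, the difference of Mtf1 between these hosts was 0.18 (95% interval −0.04 to 0.39, adjusted p = 0.235). The Salmonella change was 0.13 in knockout hosts (95% interval −0.08 to 0.34) and −0.01 in WT hosts (95% interval −0.22 to 0.20), and neither passed.

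**Figure D4:**
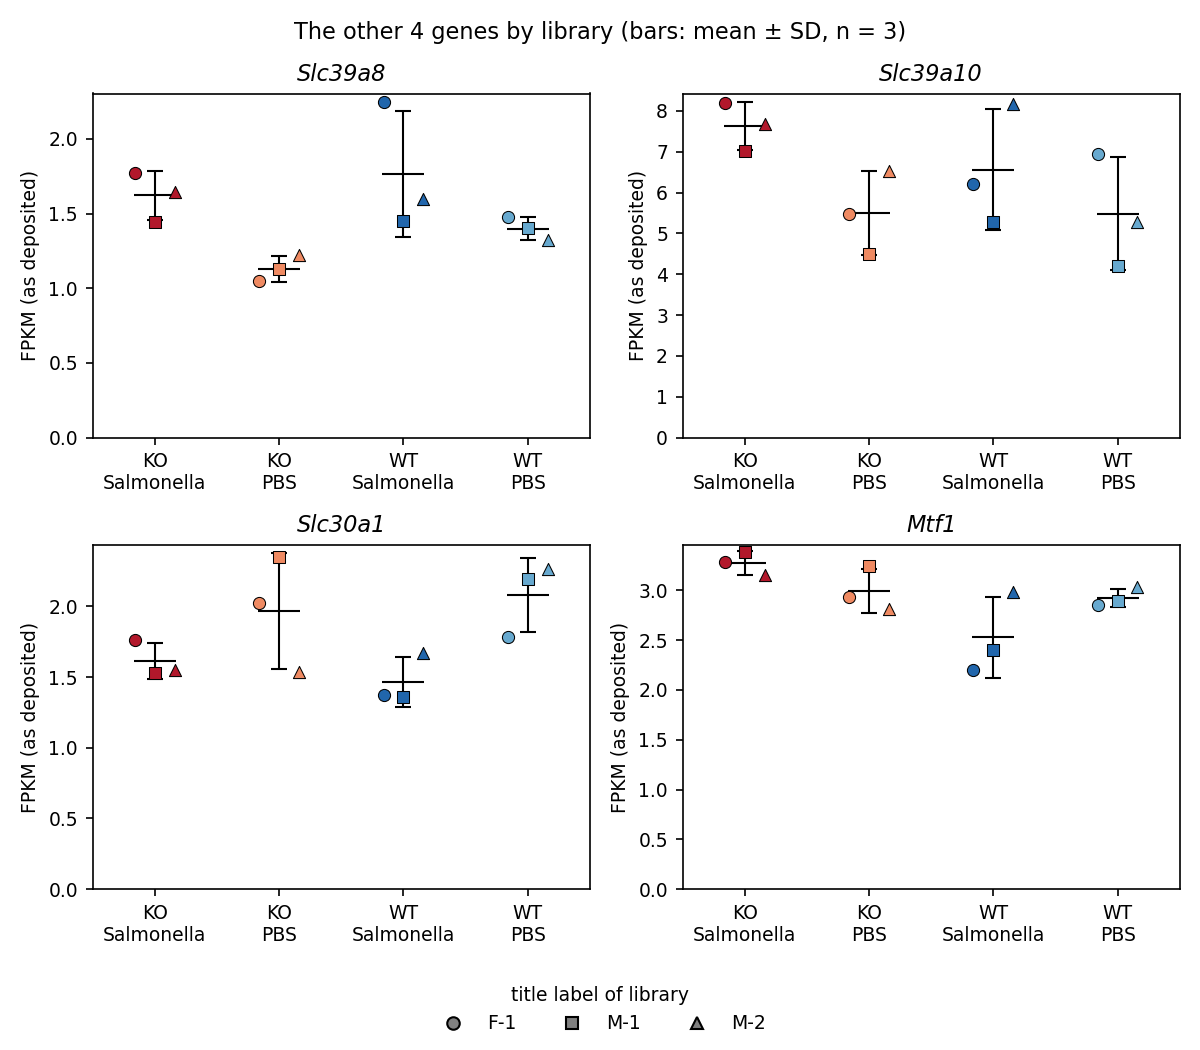
FPKM as deposited of Slc39a8, Slc39a10, Slc30a1 and Mtf1 in each of the 12 libraries (symbols: title label), with the mean and SD of each group of 3. Slc39a8 and Slc39a10 lie higher under Salmonella than under PBS in knockout hosts, Slc30a1 lies lower under Salmonella in WT hosts, and none of these differences passed after adjustment.

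None of the zinc transporters outside the 7 genes passed as higher in either host. Of 11 further Slc39a importers 8 were tested, and in WT hosts 0 were higher and 2 lower; in knockout hosts 0 were higher and 1 lower. Their median log2 change was 0.04 in knockout hosts and 0.07 in WT hosts. Over all genes 16.2% were lower in WT hosts and 0.329% in knockout hosts. Slc39a11 encodes ZIP11, a transporter of the Golgi and nucleus, and its RNA was lower after Salmonella in both hosts. It measured 10.04, 11.7 and 12.1 FPKM in knockout Salmonella tumours and 15.3, 15.7 and 15.4 FPKM in knockout PBS tumours, a log2 change of −0.42 (adjusted p = 0.0406). In WT Salmonella tumours it measured 10.6, 9.78 and 12.9 FPKM, and in WT PBS tumours 16.2, 16.4 and 15.1 FPKM, a log2 change of −0.31 (adjusted p = 0.0126). The groups did not overlap in either host, a separation found for 29.4% of all genes in knockout hosts and 45.4% in WT hosts. The knockout call was lost in 13 of 20 alternatives, 8 of them leaving out 1 library (adjusted p up to 0.150, without knockout Salmonella F-1). The WT call was lost in 1, without WT Salmonella M-1 (adjusted p = 0.0531). Slc39a3, which encodes the plasma membrane importer ZIP3, averaged 5.59 ± 1.05 FPKM in WT Salmonella tumours and 9.05 ± 0.69 FPKM in WT PBS tumours (SD, n = 3 each), a log2 change of −0.47 (adjusted p = 0.00576). Its change in knockout hosts was −0.16 (adjusted p = 0.410).

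Of 9 further Slc30a exporters 8 were listed and 5 tested, with 0 higher and 0 lower in knockout hosts and 0 higher and 1 lower in WT hosts, where 16.2% of all genes were lower. The lower one was Slc30a9, at 13.9 ± 2.3 FPKM in WT Salmonella tumours and 19.3 ± 0.9 FPKM in WT PBS tumours (SD, n = 3 each); its log2 change was −0.28 (adjusted p = 0.0206), and 4 of 20 alternatives lost the call, 3 of them without WT PBS M-1, WT PBS M-2 or WT Salmonella F-1 (adjusted p 0.0616 to 0.0834). Its protein, ZnT9, is a zinc exporter of mitochondria. None of the 13 further transporters differed between the hosts under Salmonella or under PBS; with an unadjusted p under 0.05 there was 1, Slc39a3, higher in knockout tumours under Salmonella by 0.28 (adjusted p = 0.0920). The untested importers Slc39a2, Slc39a5 and Slc39a12 and exporters Slc30a2, Slc30a3 and Slc30a10 stayed too low for the filter. The highest levels among all zinc transporters belonged to Slc39a7, the importer from the endoplasmic reticulum, at 124 ± 9 FPKM in knockout Salmonella tumours and 109 ± 9 in knockout PBS tumours, and 107 ± 8 in WT Salmonella tumours and 102 ± 10 in WT PBS tumours (SD, n = 3 each).

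**Figure D5:**
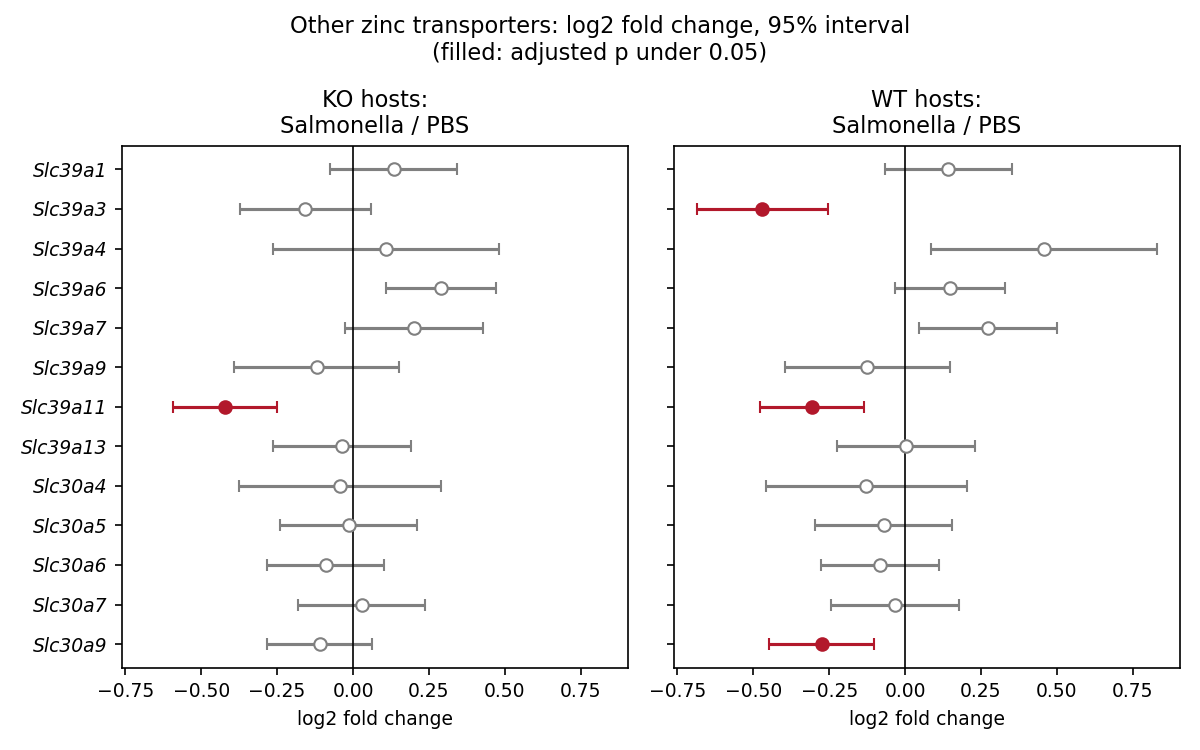
Log2 fold change of Salmonella against PBS, with the 95% interval of the limma fit, for the 13 tested zinc transporters outside the 7 genes, in knockout hosts (left) and WT hosts (right); filled points have an adjusted p under 0.05. Slc39a11 is lower in both hosts and Slc39a3 and Slc30a9 in WT hosts, and none of the 13 passes as higher.

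Genes reported to depend on MTF1 in mouse or human cells were a mixed set, set beside 19.2% of all genes higher in WT hosts. Of 6 such genes outside the members, 0 passed in knockout hosts and 3 were higher and 0 lower in WT hosts. Their median log2 change was 0.16 in knockout hosts and 0.32 in WT hosts. Between the hosts under Salmonella 0 passed, and 0 passed for the difference between both Salmonella effects. Gclc, the catalytic subunit of the enzyme that starts glutathione synthesis, rose by 0.55 in WT hosts (adjusted p = 0.00404), and it measured 13.1 ± 0.1 FPKM in knockout Salmonella tumours and 10.5 ± 1.3 in knockout PBS tumours, and 13.2 ± 1.0 in WT Salmonella tumours and 10.3 ± 1.3 in WT PBS tumours (SD, n = 3 each). Pgf, placental growth factor, rose by 1.33 in WT hosts (adjusted p = 0.0353), with 10.5, 16.5 and 5.65 FPKM in WT Salmonella tumours and 3.55, 3.77 and 5.76 FPKM in WT PBS tumours, where again M-2 lay with the PBS libraries. Its value was 1.81 without WT Salmonella M-2 and 0.94 without M-1, and 8 of 20 alternatives lost the call. Slc40a1, the iron exporter ferroportin, rose by 0.87 in WT hosts (adjusted p = 0.0119) but stood at 0.731 to 0.794 FPKM in WT Salmonella tumours and 0.115 to 0.544 FPKM in WT PBS tumours, and it passed the filter mainly through the group in which it was high.

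The transport of other metals and the calgranulins were described in the same way. Over all tested genes 19.2% were higher and 16.2% lower in WT hosts. Under Salmonella 5.82% of all genes were lower in knockout than in WT tumours. The difference between both Salmonella effects passed for 0 of the 12 tested copper and manganese genes and 0 of the 2 calgranulin genes. Of 12 tested copper and manganese genes, 0 passed in knockout hosts and 8 were higher and 1 lower in WT hosts, while 4 were lower in knockout than in WT tumours under Salmonella. Slc11a2, which encodes the iron and manganese importer DMT1, rose by 0.73 in WT hosts (adjusted p = 0.00314) and was lower in knockout tumours under Salmonella by −0.54 (adjusted p = 0.0326). Cp, which encodes the copper-binding ferroxidase ceruloplasmin, averaged 9.31 ± 2.70 FPKM in knockout Salmonella tumours and 6.64 ± 2.14 in knockout PBS tumours, and 19.99 ± 5.70 in WT Salmonella tumours and 6.25 ± 1.07 in WT PBS tumours (SD, n = 3 each). It rose by 1.77 in WT hosts (adjusted p = 0.00381). The calgranulin genes S100a8 and S100a9 rose in both hosts. S100a8 averaged 337 ± 86 FPKM in knockout Salmonella tumours and 3.02 ± 1.16 in knockout PBS tumours, a log2 change of 6.61 (adjusted p = 0.00591). S100a9 rose by 8.39 on the same scale in knockout hosts (adjusted p = 0.00354). In WT hosts the log2 changes were 9.11 for S100a8 and 9.71 for S100a9, and both genes also stand on the list of neutrophil markers.

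Pathways known to induce metallothioneins were counted in the same way. Over all tested genes 0.756% passed in knockout hosts, and 19.2% were higher and 16.2% lower in WT hosts. Between the hosts under Salmonella 2.92% of all genes were higher and 5.82% lower in knockout tumours. The difference between both Salmonella effects passed for 0.0247% of all genes. It passed for 0 of 15 IL-6 and STAT3, 0 of 11 tested glucocorticoid-induced and 0 of 13 oxidative stress genes. A larger rise in WT hosts was thus not shown for any of them. Of 15 genes of the IL-6 and STAT3 axis, 0 passed in knockout hosts (median log2 change 0.38), 8 were higher and 0 lower in WT hosts (median 0.71), and 2 were lower in knockout tumours under Salmonella (median −0.44). Among the 8, Lifr passed the low-value filter mainly through the WT Salmonella libraries. Il6 itself averaged 4.17 ± 3.28 FPKM in knockout Salmonella tumours and 0.114 ± 0.090 in knockout PBS tumours (log2 change 2.71, adjusted p = 0.115), and 33.4 ± 24.2 in WT Salmonella tumours and 0.398 ± 0.127 in WT PBS tumours (4.92, adjusted p = 0.00238; SD, n = 3 each). With voom on the recovered fragments the WT change of Il6 did not pass (5.89, adjusted p = 0.114). Cebpd, a transcription factor gene of the acute phase, rose by 2.41 in WT hosts (adjusted p = 0.000949). Its change in knockout hosts was 1.35 (adjusted p = 0.0750). Of 11 tested glucocorticoid-induced genes, 0 passed in knockout hosts and 2 were higher and 0 lower in WT hosts, with a median of 0.11; 3 were lower in knockout tumours under Salmonella. The share higher in WT hosts is close to that of all genes. The 2 higher in WT hosts were Dusp1, a phosphatase gene that many stimuli induce, which rose by 2.75 (adjusted p = 0.00434), and the clock gene Per1, which rose by 0.57 (adjusted p = 0.00822). The 3 lower in knockout tumours were the same 2, Dusp1 by −2.22 (adjusted p = 0.0316) and Per1 by −0.66 (adjusted p = 0.0178), and the transcription factor gene Klf9 by −0.65 (adjusted p = 0.0194). Of 13 oxidative stress genes, 0 passed in knockout hosts and 9 were higher and 1 lower in WT hosts, with a median of 0.63; 1 was higher and 3 lower in knockout tumours under Salmonella. Hmox1, the inducible haem oxygenase gene, averaged 373 ± 77 FPKM in knockout Salmonella tumours and 190 ± 24 in knockout PBS tumours, and 910 ± 246 in WT Salmonella tumours and 227 ± 11 in WT PBS tumours (SD, n = 3 each). It rose by 2.17 in WT hosts (adjusted p = 0.000445), and was lower in knockout tumours under Salmonella by −1.45 (adjusted p = 0.0143). Its change in knockout hosts was 0.98 (adjusted p = 0.0910). Slc7a11, the cystine importer, rose by 2.01 in WT hosts (adjusted p = 0.000834), with a change of 0.75 in knockout hosts (adjusted p = 0.153).

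Over the 12 libraries the members fell into loose patterns, given here as description since the points share groups and scaling. Mt1 and Mt2 had a Pearson correlation of 0.974 in log2 level, and Slc39a14 and Slc39a8 one of 0.799. Slc39a10 and Slc30a1, importer and exporter, ran opposite to each other at −0.805. Mtf1 correlated with its known targets at −0.430 for Mt1, −0.423 for Mt2 and 0.0079 for Slc30a1. Likeness was ranked among 10145 tested genes with a mean log2 level above 1, leaving out genes with Gm, Rik or numbered clone symbols. Among these the 5 most like Mt1 were Mt2, Cox7a2l (0.954), Bri3 (0.953), Maff (0.951) and Ftl1 (0.948), the last of which encodes the ferritin light chain. The 5 most like Slc39a14 were Steap4 (0.967), Serping1 (0.967), Nbl1 (0.964), Pi16 (0.964) and Rarres2 (0.963); Steap4 encodes a metalloreductase of iron and copper, and Serping1 the inhibitor of complement C1.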

How the data were processed

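The data are 12 RNA-seq libraries of MC38 tumours. Per the labels' protocols, TRIzol was used for extraction and the VAHTS Universal V6 kit for the libraries, with no strand setting stated. The submitters' processing notes list fastp, HISAT2 and HTSeq with neither version nor role; which genome build and annotation were used is not given in the sources used here. For each library the authors deposited normalized values, whose unit was inferred from the values as FPKM: for 18221 of 18222 genes above 0 (99.99%) every value was a whole number of fragments, within 0.01, at 1 gene length.

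Levels are deposited FPKM with the SD of 3 libraries. Tests used limma 3.58.1 (R 4.3.3) on log2(FPKM / scaling factor + 0.5), all 12 libraries, with intensity trend and robust moderation. Fold changes are on that scale, which understates changes of low genes. Scaling factors were trimmed means of log ratios (30% of ratios, 5% of levels). The 12164 genes at 0.5 FPKM or more in 3 or more libraries were tested. P-values are two-sided, with Benjamini-Hochberg adjustment over all tested genes and 0.05 as threshold. Summed levels and ratios of Mt1 and Mt2 were compared with exact permutation tests. The fit was tested on simulated data. Alternatives were median-of-ratios scaling, FPKM as deposited, no filter, pseudocounts of 0.1 and 1, only the groups compared, the title label as a replicate block, voom on recovered fragments, and each library left out.

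The members, gene lists and markers were chosen with earlier results of these data known. Named were the 7 members, list genes related to zinc that passed in a comparison, the 2 genes per other list with the smallest p in WT hosts, and the 5 genes most correlated with Mt1 and with Slc39a14; Slc39a7 was named after its values were seen. Positions are from GENCODE M21 (GRCm38), whose gene lengths differ from those recovered (Mt1 1246 bp of exons against 1045 bp). Limits from counts cover counting error only. The marker genes Ltf, Tek, Myh1, Ly6g, Cxcr2, Camp, Mb, Alas2, Itgam and Pax5 and the genes Klf9 and Lifr were named after their values were seen.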

Additional observations from a re-analysis of the deposited data

How the results depend on the processing

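The numbers of members that passed moved with the processing, and the cause was not tested. In WT hosts 2 passed, against 1 with no filter and 1 with only the groups compared, and 1 to 4 when 1 library was left out, 4 being without WT Salmonella M-2, in a fit in which 51.5% of all genes passed. Between the hosts under Salmonella 2 passed, against 1 with no filter and 0 with only the groups compared, and 0 to 3 with 1 library left out, 3 being without WT Salmonella M-2, where 37.7% of all genes passed. For the difference of both Salmonella effects 0 passed, and 0 to 1 with 1 library left out, 1 being without WT Salmonella M-2, where 18.4% of all genes passed. In knockout hosts and between the hosts under PBS 0 passed in every alternative run. Slc39a14 in WT hosts passed in all 20 alternatives. Mt1 in WT hosts lost its call in 6 of 20 (adjusted p 0.0536 with no filter and 0.0911 with only the groups compared, and 0.0910 to 0.128 in the 4 leaving out a library). Between the hosts under Salmonella Mt1 lost it in 5 of 20 (0.104 with only the groups compared) and Mt2 in 7 of 20 (0.050 with no filter, 0.106 with only the groups compared).

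Changes near 0 turned sign. With 1 library left out, Mtf1 in WT hosts ranged from −0.037 to 0.025, Mt2 in knockout hosts from −0.070 to 0.381 and Mt3 there from −0.24 to 0.19. Under Salmonella the difference between hosts ranged from −0.034 to 0.126 for Slc39a10 and from −0.090 to 0.0032 for Slc30a1, and Slc30a1 was at 0.11 with FPKM as deposited. Counts over all genes ranged from 2045 to 6207 in WT hosts (4312), from 4 to 736 in knockout hosts (92) and from 10 to 4551 between the hosts under Salmonella (1063).

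No clear pairing of the libraries by replicate title was seen: 18 pairs of libraries with 1 label had correlations of −0.33 to 0.40, with 7 over 0.1, and 8 correlated best with their own label. With 3 libraries a group this check cannot exclude a weaker shared factor. With the label as a replicate block 3 members passed in WT hosts, Slc39a10 being added (0.43, adjusted p = 0.0266), 2 between the hosts under Salmonella, and 46 of all genes in knockout hosts. Depth limits Mt3 and Mt4, and 3 libraries a group limit the rest.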
